A study of Caenorhabditis elegans with 20 samples.

Results

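The genes described here are the 240 C-type lectin (clec) genes of Caenorhabditis elegans, chosen by name alone: every gene with the symbol clec- and a number, out of 39341 genes in the deposited tables. Messenger RNA was profiled in whole animals labelled as L4 larvae, in 20 libraries, 2 biological replicates for each group, from a pair of experiments. All animals, wild type included, carried the wwIs24 transgene (Pacdh-1::GFP and unc-119(+)). In the first experiment wild type animals were set against Δnhr-114 (gk849) animals, both fed Escherichia coli OP50 for 48 hours with 25 mM methionine or with none. In the second, the groups were wild type, Δmetr-1 (ok521) and metr-1(ww52);Δnhr-10(tm4695) animals, which all received vitamin B12 (20 nM) and were fed E. coli HT115 for 48 hours that held either an empty vector or the clone for nhr-114 RNAi. The last of these, called the ww52 strain below, carried both a metr-1 mutation and an nhr-10 deletion, so that their effects cannot be told apart. METR-1 is methionine synthase, which uses vitamin B12 as its cofactor, and both nhr genes encode nuclear hormone receptors.

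C-type lectins carry a compact protein fold that in many members, though not all, binds carbohydrates in the presence of calcium. C. elegans has one of the largest families known, and many of its members are secreted proteins made in the intestine. Several are induced by pathogenic bacteria, partly through the p38 kinase PMK-1, and are used as markers of the immune response, while others are made in the germ line or in single tissues. The roles of most members are not known.

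Facts of the whole series that bear on the members were these. Libraries held 1389117 to 24482380 reads (first experiment) and 2542155 to 16025927 (second), and values are given in CPM, the reads of a gene per 1000000 in its library, not divided by gene length. A count of 0 allows up to 3 reads, or 0.123 to 2.16 CPM depending on the library, from counting error only. The targeted gene nhr-114 was at 29.01 and 36.6 CPM in untreated wild type and at 0.445 and 0.703 CPM in untreated Δnhr-114. In the second experiment, however, the replicate 1 libraries labelled nhr-114 RNAi held 340, 193 and 391 CPM of nhr-114 (wild type, Δmetr-1 and the ww52 strain), whereas replicate 2 held 2.30, 7.94 and 3.60 CPM. metr-1 was at 372 to 555 CPM in the mutants on vector and 59.8 and 69.4 CPM for wild type, and nhr-10 at 16.1 to 25.9 CPM in the ww52 strain and 22.8 to 41.8 CPM for wild type in the same experiment, so neither level checked a label. On RNAi metr-1 was at 30.3 and 45.7 CPM for Δmetr-1, 130 and 116 CPM in the ww52 strain and 94.5 and 73.7 CPM for wild type (replicates 1 and 2). In both mutants each replicate on RNAi was thus below both libraries on vector. Every direction given below for RNAi still rests on the labels. The limma counts of clec genes are also given without the 3 replicate 1 RNAi libraries, which leaves 1 library in each RNAi group. The label of whole animals was checked with fixed marker lists: the intestine list summed to 4087 CPM or more and the body wall muscle list to 5147 CPM or more in every library.

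The clec genes lie mostly in clusters. Of the 240 members, 86 are annotated on chromosome V, 53 on IV, 48 on II, 36 on I, 14 on III and 3 on X (WBcel235), all as protein-coding genes. In all, 162 of them have another member starting within 20 kb, in 48 clusters of up to 13 genes. The symbols clec-209 and clec-15 each stand for a pair of genes with the same value in every library. The copies of clec-209 (chromosome V, 2351676 to 2352932 and 2459637 to 2460893, both 1257 bp) were at 4.20 to 195 CPM, and those of clec-15 (chromosome I, 12631185 to 12632555 and 12635172 to 12636542, both 1371 bp) at 0.418 CPM or less. Reads of such copies could not be assigned to either gene, so their values are uncertain.

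Most members were near the detection limit. No member was at 0 in every library, but 103 stayed under 1 CPM throughout, and only 17 passed 100 CPM in some library. A gene was tested where 2 or more libraries of an experiment reached 5 CPM, which left 60 members of the first experiment and 67 of the second (58 in both, and 171 of all 240 in neither). These tested members held 95.4% to 97.7% of the summed clec level of each library. Because the filter lets a gene pass through the group in which it is high, the tested members are not a sample of the family. The summed clec level was 2022 to 3287 CPM in the first experiment and 2107 to 3390 CPM in the second, or 0.202% to 0.339% of a library. Between the replicates of a group, 11.9% to 38.3% of the tested members differed more than 2-fold on the log2(CPM + 1) scale, against 5.04% to 27.3% of all genes tested. The share was higher among clec genes in every group except untreated Δnhr-114 (18.3% against 24.1%).

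**Figure D1:**
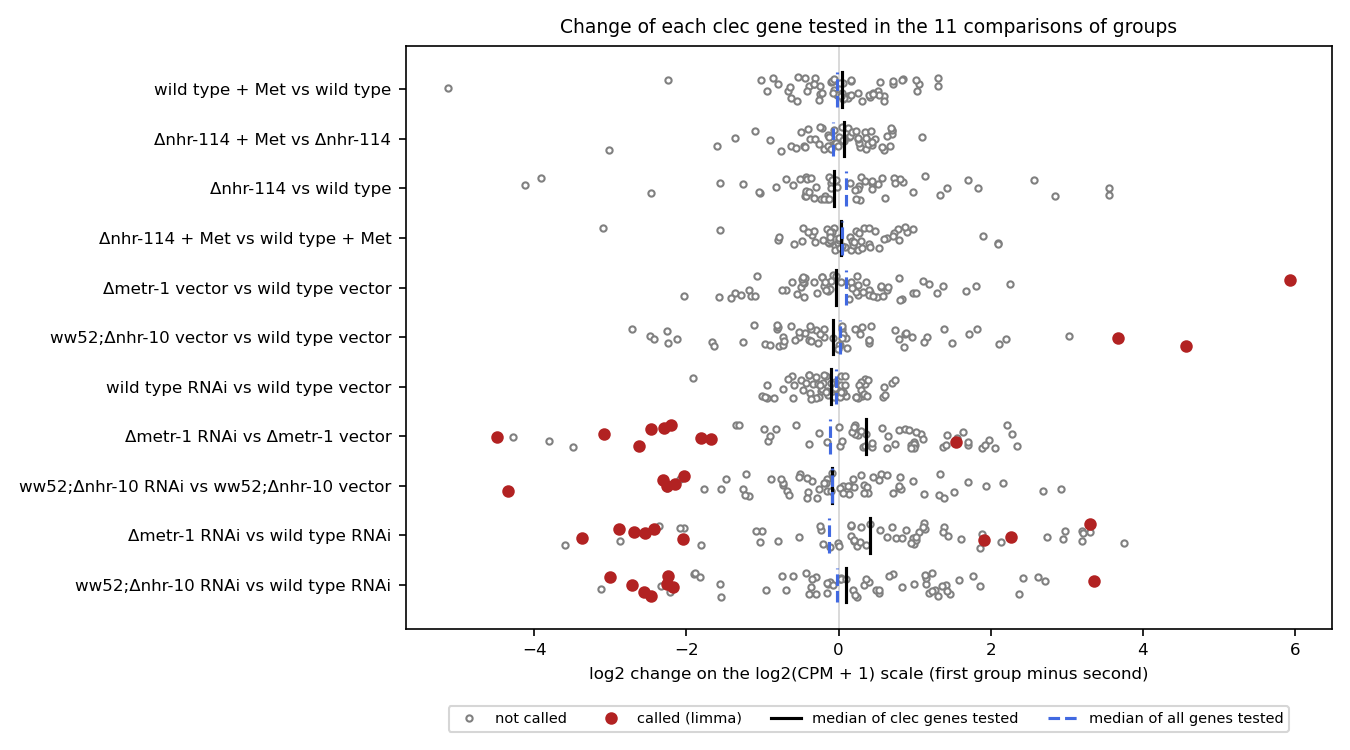
Log2 change of every clec gene tested (x axis, log2(CPM + 1) scale, first group minus second) in the 11 comparisons of groups (rows, jittered). Filled red points passed limma's threshold (Benjamini-Hochberg adjusted p under 0.01 and a fold change over 1.5), open points did not, and the solid and dashed lines are the medians of the clec genes and of all genes tested. Calls are seen only in the second experiment, 9 of 67 members in Δmetr-1 on RNAi against vector (12.5% of all genes tested), 8 of them to the left.

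In the first experiment, the question was how methionine and the loss of nhr-114 change expression on a diet low in vitamin B12. The member that differed most with methionine in wild type was clec-47 (WBGene00011668, chromosome V, 15175759 to 15176324, forward strand), a short C-type lectin gene without a neighbouring member. It was at 121 and 135 CPM (1679 and 1604 reads) in wild type without methionine, and at 2.50 and 2.88 CPM (30 and 4 reads) in wild type with methionine. In Δnhr-114 clec-47 was at 9.07 and 4.45 CPM without and 6.65 and 4.98 CPM with methionine. The untreated wild type libraries thus stood apart from all 6 others, with no overlap. The summed body wall muscle markers stood apart in the same libraries, at 17715 and 22815 CPM against 8131 to 10966 CPM in the other 6. Over the 8 genes of that list limma called 0 in each contrast, as it did for 0.0% of all genes tested, so this count says nothing about the markers. Their median log2 change was 0.11 for methionine in wild type and -0.57 for untreated Δnhr-114. With methionine the median of the list thus differed from its sum, and the part of the markers in the result was not tested. The log2 change of clec-47 was -5.13 ± 0.38 (SE, n = 2 per group) with methionine in wild type and -4.12 ± 0.38 in untreated Δnhr-114 against untreated wild type. Neither passed the limma threshold in this experiment (adjusted p = 0.0269 and 0.0338). DESeq2 on the recovered reads called both (adjusted p = 4.04e-18 and 4.58e-15), and edgeR neither (0.0864 and 0.0622). The interaction term, which asks whether methionine acts differently in the 2 genotypes, was 5.002 ± 0.54 for clec-47 (adjusted p = 0.114 by limma and 3.15e-09 by DESeq2). These comparisons share the untreated wild type libraries.

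clec-5 (WBGene00016450, chromosome III, 4881888 to 4883606, reverse strand) had a similar order of levels. It was at 13.9 and 25.99 CPM in untreated wild type, at 2.91 and 3.60 CPM with methionine, and at 6.87 to 7.92 CPM in all 4 Δnhr-114 libraries. Here too the untreated wild type libraries were the highest and those with methionine the lowest, without overlap. The log2 change with methionine in wild type was -2.24 ± 0.38, which DESeq2 called (adjusted p = 0.00351) and limma did not (0.53). clec-48 was at 53.8 and 57.5 CPM in untreated wild type and 21.8 and 37.4 CPM with methionine, and at 59.7 and 43.3 CPM in Δnhr-114 without and 29.6 and 29.8 CPM with it. Its libraries with methionine were lower in both genotypes, but the log2 changes of -0.94 and -0.76 did not pass the test (adjusted p = 1 and 0.999).

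Of the 60 members tested, limma called 0 in each comparison of the first experiment, as it did for 0.0% of all 10948 genes tested. The members at an unadjusted p under 0.05 were 3 for methionine in wild type, 1 for methionine in Δnhr-114, 9 for Δnhr-114 against wild type without methionine, 1 for the same with methionine, and 4 for the interaction. The matching share of all genes is not given here. edgeR also called 0 in each. DESeq2 called 2 members for methionine in wild type (clec-47 and clec-5, both lower), against 0.155% of all genes. It called 2 for untreated Δnhr-114 (clec-47 and clec-169, both lower), against 0.776%, and 1 in the interaction (clec-47), against 0.201%. It called 0 members for methionine in Δnhr-114 and for Δnhr-114 with methionine, against 0.393% and 0.0274% of all genes. The median log2 change of the members was between -0.06 and 0.07 in the 5 contrasts, and that of all genes between -0.07 and 0.10.

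The other members singled out in this experiment did not pass limma's test. clec-174 was at 31.1 and 20.1 CPM in untreated Δnhr-114 and at 1.09 to 5.32 CPM in the other 6 libraries, so that untreated Δnhr-114 stood alone. Its log2 change was 2.84 ± 0.69 against untreated wild type (adjusted p = 0.434) and -3.01 ± 0.69 with methionine within Δnhr-114 (adjusted p = 0.61). clec-84 was at 6.58 and 5.40 CPM in untreated wild type and 16.4 and 34.4 CPM in untreated Δnhr-114 (log2 change 1.83, adjusted p = 0.903). clec-4, a gene often used as a marker of the infection response, was at 0.145 and 0.506 CPM in untreated wild type and 5.07 and 2.03 CPM in untreated Δnhr-114. With methionine it was at 0.582 and 0 CPM for wild type and 5.60 and 2.33 CPM in Δnhr-114 (log2 change 1.90, adjusted p = 1). Its wild type values rested on 7 reads or fewer. Only replicate 1 of Δnhr-114, without and with methionine, reached 5 CPM, so clec-4 entered this test through the genotype in which it was high. clec-170 was at 7.45 and 14.3 CPM in untreated wild type and 4.72 and 4.37 CPM in untreated Δnhr-114 (log2 change -1.04, adjusted p = 0.991). clec-151 was at 14.7 and 9.28 CPM in untreated wild type and 4.58 and 8.64 CPM with methionine (log2 change -0.79), and clec-8 at 10.4 and 8.04 CPM in Δnhr-114 without and 15.99 and 15.1 CPM with methionine (0.70).

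In the second experiment, the question was how the metr-1 mutations change expression when vitamin B12 is supplied, and whether this needs nhr-114. On vector, clec-47 was at 2.39 and 2.23 CPM for wild type (25 and 31 reads), at 168 and 241 CPM for Δmetr-1, and at 145 and 40.996 CPM in the ww52 strain. Both mutants were above wild type in each library. The log2 change was 5.93 ± 0.59 in Δmetr-1 and 4.57 ± 0.59 in the ww52 strain (SE, n = 2 per group; adjusted p = 0.00211 and 0.00785 by limma). On bacteria labelled as nhr-114 RNAi the gene was at 5.29 and 3.04 CPM for wild type, 5.15 and 12.05 CPM for Δmetr-1, and 4.18 and 1.87 CPM in the ww52 strain. The 3 strains overlapped on RNAi, and every mutant library was below every mutant library on vector. The muscle marker sum was high in the same libraries as clec-47, at 15895 and 14522 CPM for Δmetr-1 and 13443 and 8841 CPM in the ww52 strain on vector, against 5147 to 7687 CPM in the other 8. Of the 8 muscle genes limma called 0 on vector, where it called only 0.113% and 0.26% of all genes, so this count says little. Their median log2 change was 0.18 and 0.03, so the median of the list differed from its sum. In Δmetr-1 on RNAi against vector limma called unc-54 alone, lower, against 12.5% of all genes tested. The part of these markers was not tested. clec-47 fell by 4.49 in Δmetr-1 and by 4.34 in the ww52 strain on the log2 scale (adjusted p = 0.000985 and 0.0028). The interaction terms of -5.10 ± 0.84 and -4.95 ± 0.84 did not pass limma's threshold (adjusted p = 0.0203 and 0.0377) and were called by DESeq2 (1.11e-05 and 7.46e-07). edgeR called both falls (0.00343 and 0.00628) and neither rise (0.0178 and 0.0271).

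The calls for clec-47 depended on single libraries. On vector, the call in Δmetr-1 was lost without any 1 of the 4 libraries compared, with adjusted p = 0.0349 and 0.0488 without wild type replicates 1 and 2, and 0.0169 and 0.0217 without those of Δmetr-1. The call in the ww52 strain was lost in 11 of 12 fits that left out 1 library of the experiment (adjusted p = 0.00929 to 0.101), and it held without replicate 2 of that strain on vector. The fall in Δmetr-1 was lost without replicate 1 on RNAi (adjusted p = 0.0119), and that in the ww52 strain without any 1 of the 4 libraries compared (0.0102 to 0.0253). The direction was the same in every such fit. Of the alternatives given below, a replicate block, a pseudocount of 5 and median-of-ratios scaling also lost the vector call of clec-47 in the ww52 strain.

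**Figure D2:**
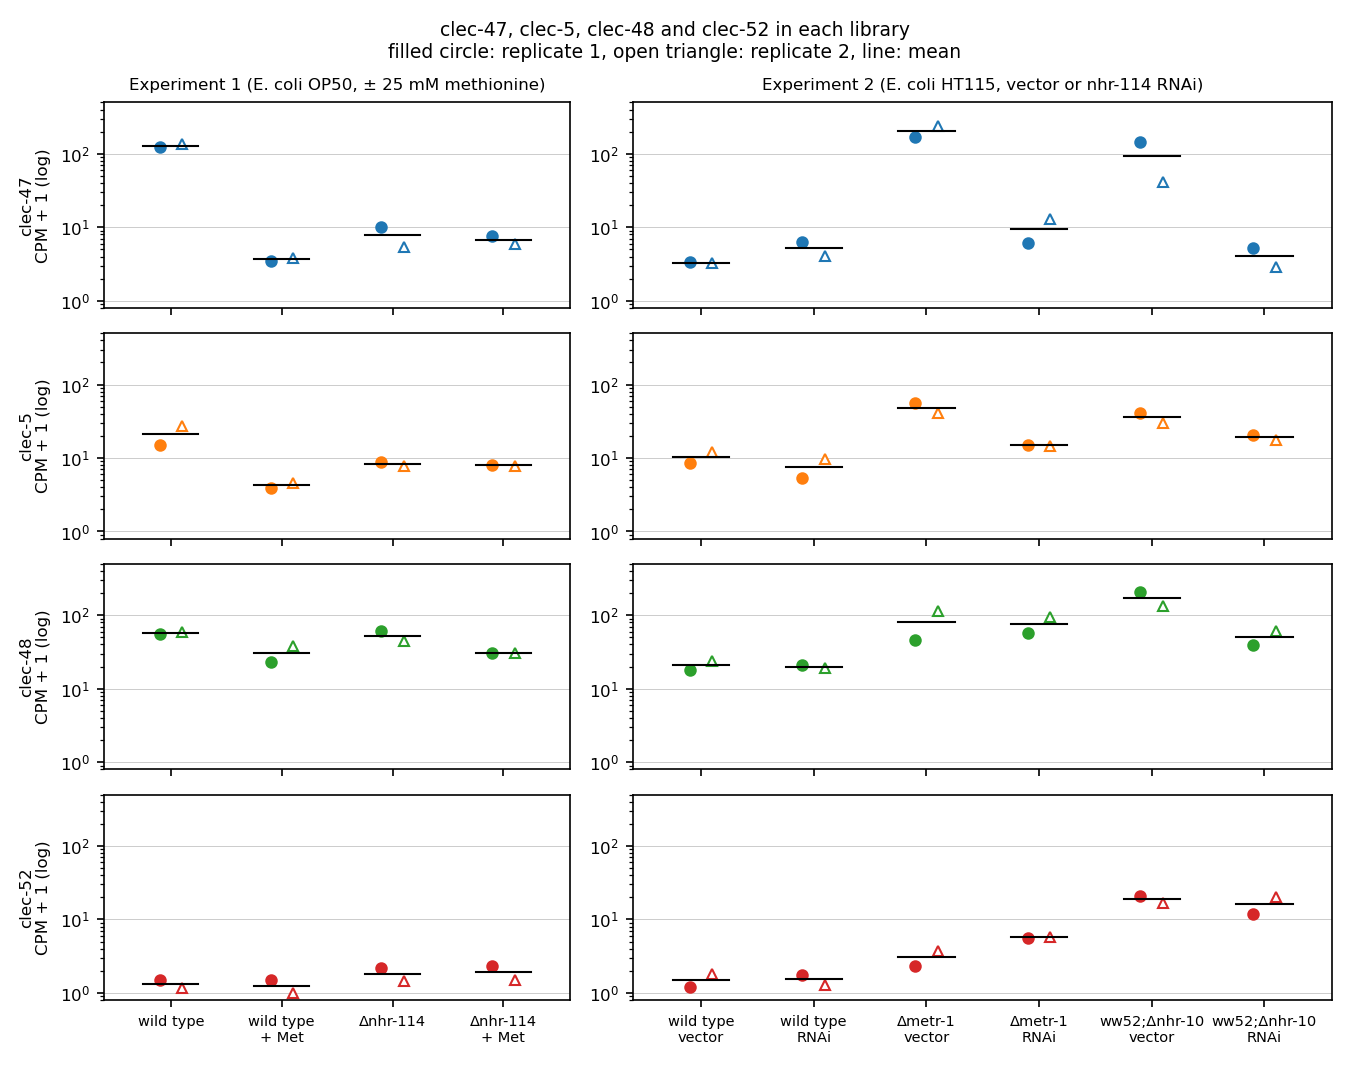
CPM + 1 (log axis) of clec-47, clec-5, clec-48 and clec-52 (rows) in every library of the first (left) and second experiment (right), by group. Filled circles are replicate 1, open triangles replicate 2 and lines the means. clec-47 is at 121 and 135 CPM in untreated wild type and at 168 and 241 CPM for Δmetr-1 on vector, and at 12.05 CPM or less in every group other than these and the ww52 strain on vector.

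clec-5 and clec-48 were also higher in the metr-1 mutants on vector. clec-5 was at 7.45 and 10.99 CPM for wild type, 55.6 and 39.5 CPM for Δmetr-1 and 40.5 and 29.4 CPM in the ww52 strain, without overlap. The log2 changes of 2.25 ± 0.36 and 1.82 ± 0.36 were called by DESeq2 (adjusted p = 0.000178 and 0.00695) and missed limma's threshold (0.0232 and 0.0589). On RNAi clec-5 was at 4.36 and 8.60 CPM for wild type, 14.2 and 13.7 CPM for Δmetr-1 and 19.9 and 16.6 CPM in the ww52 strain. In Δmetr-1 it fell by 1.68 ± 0.36 (adjusted p = 0.00748 by limma, and 0.0207 by edgeR, which did not call it). That call was lost in 9 of 12 fits without a single library (adjusted p = 0.00629 to 0.0495), among them those without replicate 1 of Δmetr-1 on vector and either replicate of Δmetr-1 on RNAi.

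clec-48 was at 16.9 and 22.8 CPM for wild type on vector, 44.4 and 114.7 CPM for Δmetr-1, and 208 and 134 CPM in the ww52 strain. Its order was thus the reverse of clec-47, with the ww52 strain above Δmetr-1. The log2 change in the ww52 strain was 3.02 ± 0.46 (adjusted p = 0.016 by limma and 6.32e-06 by DESeq2). On RNAi clec-48 stayed at 56.1 and 94.4 CPM for Δmetr-1 and was at 38.7 and 60.6 CPM in the ww52 strain, against 19.9 and 18.2 CPM for wild type. In Δmetr-1 its vector and RNAi libraries overlapped, unlike those of clec-47.

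clec-52 (WBGene00015052, chromosome IV, 8167164 to 8168760, reverse strand), the neighbour of clec-51, was high in a single strain. It was at 19.7 and 15.9 CPM in the ww52 strain on vector and 10.9 and 19.5 CPM on RNAi. It was at 0.191 to 0.790 CPM in the 4 wild type libraries (2 to 11 reads), at 1.34 and 2.75 CPM for Δmetr-1 on vector and at 4.61 and 4.83 CPM on RNAi. Only the ww52 strain reached 5 CPM, so clec-52 entered the test through that strain. The log2 change against wild type was 3.68 ± 0.40 on vector and 3.36 ± 0.40 on RNAi (adjusted p = 0.0026 and 0.000597), and 1.91 ± 0.40 in Δmetr-1 on RNAi (0.00556, lost without any 1 of the 4 libraries compared). On vector the call was lost without any 1 of the 4 libraries compared (adjusted p = 0.0234 to 0.0571) and in edgeR (0.0128). On RNAi the call in the ww52 strain held in all 12 fits without a single library. clec-51, which lies next to clec-52, was at 13.0 to 22.7 CPM in all 12 libraries.

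In all, limma called 1 of 67 members in Δmetr-1 on vector, against 0.113% of all 11543 genes tested, and 2 of 67 in the ww52 strain, against 0.26%. These 3 calls were rises, as were those of 0.113% and 0.243% of all genes. edgeR called 0 members in both, against 0.0953% and 0.13% of genes. By limma 9 and 17 members had an unadjusted p under 0.05, and the share of all genes at that p is not given here. DESeq2 called 2 in Δmetr-1 (clec-47 and clec-5), against 0.771%, and 7 in the ww52 strain, 4 higher and 3 lower, against 1.17% of genes in either direction. Among the 3 lower members was clec-67, at 12.7 and 20.8 CPM for wild type and 1.18 and 5.12 CPM in the ww52 strain (log2 change -2.24, adjusted p = 0.00882 by DESeq2 and 0.0834 by limma). The median log2 change of the members was -0.04 and -0.07, and that of all genes 0.10 and 0.02. These comparisons share the wild type vector libraries, and RNAi libraries enter their test only through the spread estimated in the joint fit. Without the replicate 1 RNAi libraries limma called 0 members in either (adjusted p of the lost calls 0.0196 to 0.0462).

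In wild type, RNAi against vector gave 0 calls among the 67 members by limma and by DESeq2, as for 0.0% of all genes, and 0 members had an unadjusted p under 0.05 by limma. Among members whose libraries did not overlap was clec-97, at 8.31 and 3.09 CPM on vector and 0.467 and 0.815 CPM on RNAi (log2 change -1.92 ± 1.10). clec-147, clec-50 and clec-205 were lower by a log2 change of 0.37 to 1.00, with an adjusted p of 0.998 each.

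In the metr-1 mutants, RNAi against vector gave more calls than in wild type, a difference tested only through the interactions given below. In Δmetr-1, limma called 9 of 67 members, against 12.5% of all genes tested. Of these, 8 were lower (1272 of all 11543 genes were called lower) and clec-66 was higher (1.52% of all genes were called higher). In the ww52 strain it called 5 of 67, against 4.76% of all genes, all 5 lower (3.38%). The 5 genes, clec-47, clec-73, clec-79, clec-119 and clec-151, were also among the 9, so the shared calls were 55.6% of the first list and 100% of the second. The overlap over all genes is not given here, so these shares are only a description. The 2 strains share no library, but the joint fit gave both comparisons the same estimate of each gene's spread. DESeq2 called 18 and 11 members, against 21.0% and 11.2% of all genes. Of the DESeq2 calls, 7 of 18 and 3 of 11 were higher, compared with 1 of 9 and 0 of 5 by limma, and edgeR called 3 higher of 11 in Δmetr-1. The shares of all genes by direction for DESeq2, and those for edgeR, are not given here.

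The other members that limma called lower on RNAi against vector, clec-5 aside, were at 27.4 CPM or less in the second experiment. clec-73 (WBGene00021579, chromosome IV, 3954030 to 3956195, reverse strand) was at 20.2 and 15.4 CPM for Δmetr-1 on vector and 1.35 and 2.89 CPM on RNAi. In the ww52 strain it was at 16.1 and 15.6 CPM on vector and 2.30 and 2.51 CPM on RNAi, and in wild type at 19.3 to 27.4 CPM on either. The 4 mutant RNAi libraries were thus below all 8 others. clec-73 fell by 2.62 ± 0.32 in Δmetr-1 and by 2.31 ± 0.32 in the ww52 strain (adjusted p = 0.000782 and 0.00278).

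clec-151 and clec-153 are neighbours on chromosome III (4628465 to 4631132 and 4635247 to 4637534, forward strand). clec-151 was at 17.3 and 9.66 CPM for Δmetr-1 on vector and 0.271 and 1.15 CPM on RNAi, and at 6.69 and 8.80 CPM against 1.05 and 1.22 CPM in the ww52 strain. clec-151 fell by 3.08 ± 0.37 and by 2.03 ± 0.37 (adjusted p = 0.000745 and 0.00692). clec-153 was at 8.27 and 4.33 CPM for Δmetr-1 on vector and 0.993 and 1.01 CPM on RNAi, a fall of 1.81 that limma called (log2 change -1.81, adjusted p = 0.00809). For both genes, no mutant RNAi library reached the level of any wild type library.

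clec-79 (chromosome IV, 3973349 to 3975721), in the same 12-gene cluster as clec-73, was at 14.96 and 7.91 CPM for Δmetr-1 on vector and 0.903 and 1.44 CPM on RNAi. In the ww52 strain clec-79 was at 13.4 and 11.3 CPM against 1.88 and 1.67 CPM, and the log2 changes were -2.47 and -2.26 (adjusted p = 0.00107 and 0.00355). clec-119 was at 6.69 and 5.83 CPM against 0.271 and 0.938 CPM for Δmetr-1 (log2 change -2.21, adjusted p = 0.00301), and at 4.72 and 6.05 CPM against 0.209 and 0.708 CPM in the ww52 strain (-2.14, 0.00708). clec-123 was at 13.7 and 6.99 CPM against 1.44 and 1.01 CPM for Δmetr-1 (log2 change -2.29, adjusted p = 0.00377). In the ww52 strain clec-123 was at 9.83 and 10.1 CPM against 2.93 and 0.708 CPM and just missed the threshold (-2.08, 0.0112). Of the 12-gene cluster 5 members were tested. clec-67 was at 6.69 and 7.82 CPM for Δmetr-1 on vector and 13.8 and 17.2 CPM on RNAi, and clec-174 at 7.30 and 9.91 CPM and 74.5 and 24.6 CPM, neither past the test. clec-72, a member outside the naming rule and chosen after its values were seen, was at 5.84 and 18.7 CPM for Δmetr-1 on vector and 3.07 and 4.11 CPM on RNAi (log2 change -1.35, adjusted p = 0.125 by limma). It was at 18.5 and 27.3 CPM in the ww52 strain on vector and 4.39 and 3.54 CPM on RNAi (log2 change -2.25, adjusted p = 0.00951 by DESeq2 and 0.0389 by limma).

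Compared with wild type on the same RNAi bacteria, largely the same members were lower. limma called 9 of 67 members in Δmetr-1, against 15.9% of all genes tested, 6 lower (1154 of all 11543 genes) and 3 higher (5.87% of all genes). It called 8 in the ww52 strain, against 12.3%, 7 lower (7.1% of all genes) and 1 higher (5.17%). clec-73, clec-79, clec-119, clec-123, clec-151 and clec-153 were lower in both, with log2 changes of -2.04 to -3.37 in Δmetr-1 and -2.17 to -3.01 in the ww52 strain. clec-117 was lower in the ww52 strain, at 7.78 and 3.56 CPM for wild type and 0.209 and 0.451 CPM in the mutant (log2 change -2.26, adjusted p = 0.0087). These mutant values rested on 1 and 7 reads. Only replicate 1 of wild type, on vector and on RNAi, reached 5 CPM, so clec-117 entered the test through the genotype in which it was high. Its limma call was lost in 8 of 12 fits without a single library (adjusted p = 0.00505 to 0.0719). The higher members were clec-52, described above, and in Δmetr-1 clec-4 and clec-147. DESeq2 called 23 and 17 members, against 25.1% and 19.8% of all genes. These comparisons share the wild type RNAi libraries, and the mutant RNAi libraries also enter the comparisons with vector.

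**Figure D3:**
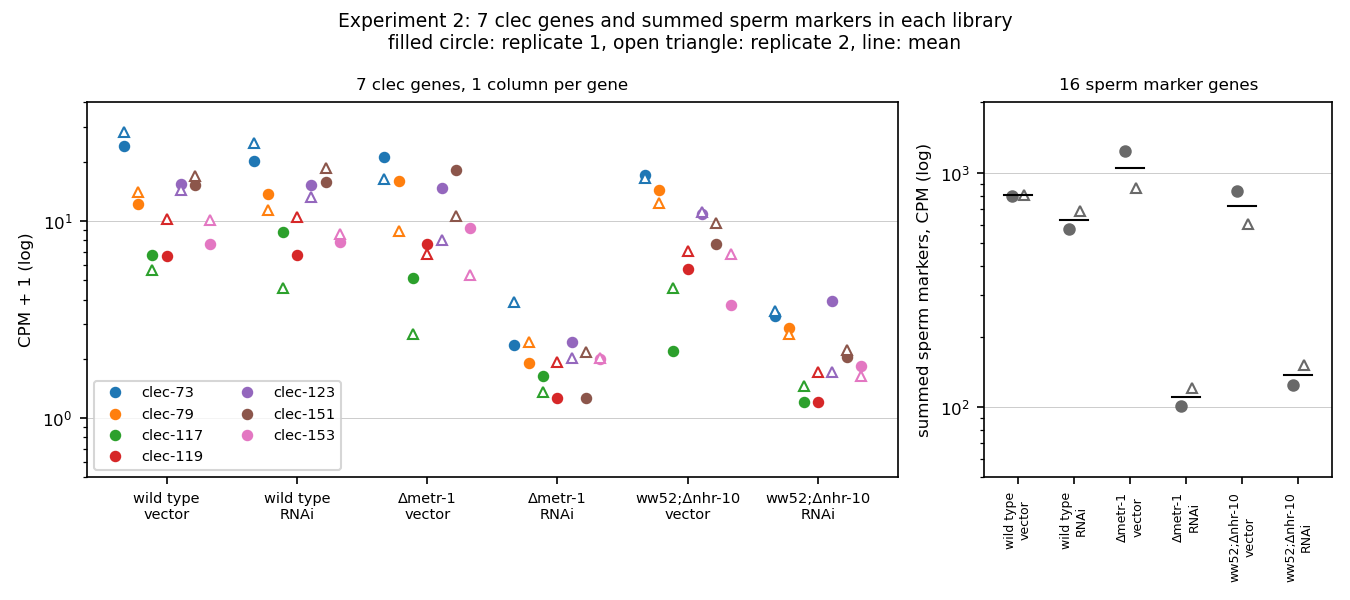
CPM + 1 (log axis) of 7 clec genes (left, 1 column per gene) and the summed CPM of 16 sperm marker genes (right, log axis, lines are means) in the libraries of the second experiment. Filled circles are replicate 1 and open triangles replicate 2. Both the clec genes and the marker sum, at 101 to 150.7 CPM against 573 CPM or more, are lowest in the 4 mutant libraries on RNAi.

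Sperm markers were lower in the same libraries. The 16 genes of a fixed sperm list, which holds no clec gene and of which 12 passed the filter, summed to 101 and 121 CPM for Δmetr-1 on RNAi and 124 and 150.7 CPM in the ww52 strain on RNAi, and to 573 to 1245 CPM in the other 8 libraries. limma called 9 of the 12 lower in Δmetr-1 and 6 of the 12 in the ww52 strain on RNAi against vector, where it called 1272 and 390 of all 11543 genes lower. None was at 0 throughout. The 7 clec genes clec-73, clec-79, clec-117, clec-119, clec-123, clec-151 and clec-153, a set put together after their values were seen, summed to 5.87 and 8.80 CPM for Δmetr-1 and 9.41 and 7.92 CPM in the ww52 strain on RNAi. In the other 8 libraries they summed to 51.8 to 92.9 CPM. Their sum was 5.25% to 14.2% of the sperm marker sum in all 12 libraries of this experiment and 4.87% to 11.9% in the 8 libraries of the first. The part of the markers in the result was not tested. In whole animals, fewer cells of a type and less RNA per cell cannot be told apart.

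clec-87, clec-88 and clec-91 varied widely between libraries. clec-87 and clec-88 encode chondroitin proteoglycan core proteins. In the first experiment clec-87 was at 226 and 26.5 CPM for wild type, 25.4 and 166 CPM for wild type with methionine, 41.9 and 563 CPM in Δnhr-114 and 274 and 61.9 CPM in Δnhr-114 with methionine. In each group 1 replicate was several-fold above the other. The sum of 12 oocyte and eggshell markers was high in the same replicates, at 1213 and 306 CPM, 292 and 1211 CPM, 326 and 4134 CPM, and 1930 and 567 CPM in the same order of groups. In the second experiment clec-87 was at 251 and 133 CPM for wild type, 419 and 63.2 CPM for Δmetr-1 and 23.995 and 45.4 CPM in the ww52 strain on vector. On RNAi it was at 104 and 98.1 CPM for wild type, 4.88 and 11.3 CPM for Δmetr-1 and 10.2 and 35.5 CPM in the ww52 strain.

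The 3 genes were set beside that list after their values were seen, so what follows is a description. Their summed level was 24.1% to 46.97% of the oocyte marker sum in the 16 other libraries of both experiments, and 2.77% and 1.84% in Δmetr-1 and 8.05% and 3.96% in the ww52 strain on RNAi. In those 4 libraries the marker sum itself was 444 to 2417 CPM, within the range of the others. In the ww52 strain the 3 genes summed to 109 and 128 CPM on vector and 35.8 and 95.7 CPM on RNAi. Its marker sum was 400 and 529 CPM on vector and 444 and 2417 CPM on RNAi. The low share in its replicate 2 RNAi library thus went with a high marker sum. clec-91 itself was not lower on RNAi in that strain. For RNAi against vector in Δmetr-1, the log2 changes were -4.27 ± 0.91 for clec-87, -3.50 ± 0.80 for clec-88 and -3.80 ± 0.84 for clec-91. All 3 missed limma's threshold (adjusted p = 0.0108, 0.0144 and 0.0111) and were called by DESeq2 (4.45e-08, 6.66e-07 and 2.98e-08). Of the 12 oocyte markers limma called 5 lower in Δmetr-1 and 0 in the ww52 strain, with a median log2 change of -3.53 and -0.96 over the 12. In Δmetr-1 that median was close to the values of the 3 clec genes. The part of these markers in the result was not tested. Yolk genes summed to 3134 and 5466 CPM for Δmetr-1 on RNAi, and to 3091 and 56.9 CPM on vector. Molting epidermis markers summed to 474 and 166 CPM on RNAi, and to 156 and 1572 CPM on vector.

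**Figure D4:**
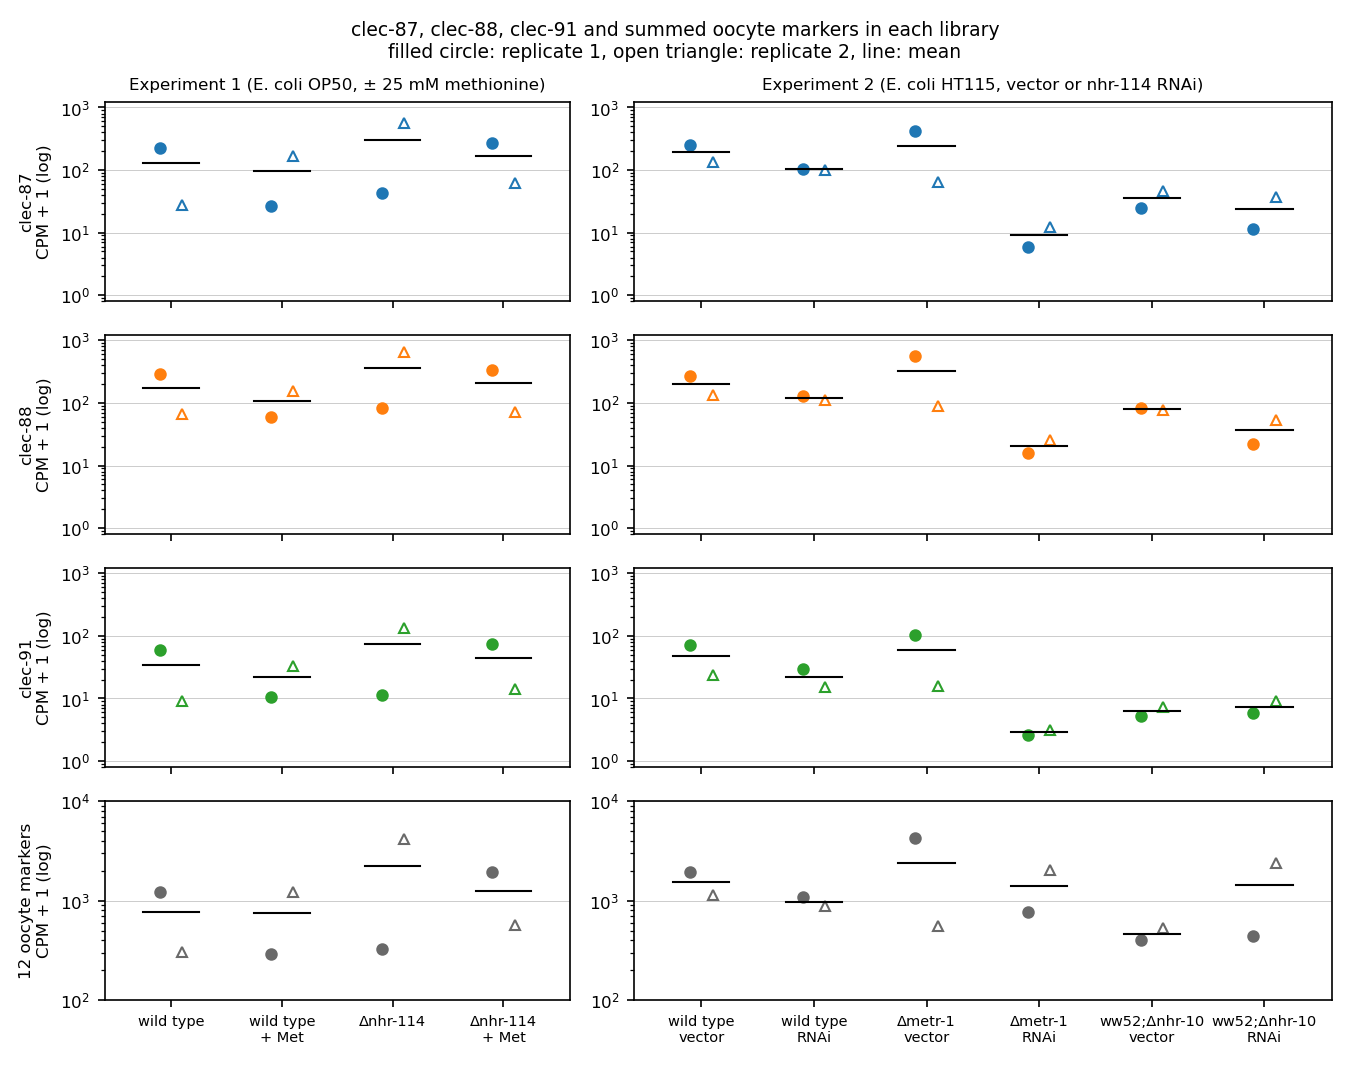
CPM + 1 (log axis) of clec-87, clec-88, clec-91 and the sum of 12 oocyte and eggshell markers (bottom row) in every library, by group. Filled circles are replicate 1, open triangles replicate 2 and lines the means. On nhr-114 RNAi in both mutants clec-87 is at 4.88 to 35.5 CPM and the marker sum at 444 to 2417 CPM, while the median log2 change of the 12 single markers on RNAi against vector is -3.53 in Δmetr-1.

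Clec genes linked to the intestine and to infection were held as a list of 18, of which 10 passed the filter in the first experiment, and 11 did in the other. In the first experiment limma, edgeR and DESeq2 each called 0 of them in every contrast, with 0 or 1 at an unadjusted p under 0.05 by limma. Their median log2 change in its 4 comparisons of groups was 0.09 to 0.32, and that of all genes -0.07 to 0.10. In the second experiment, clec-52 was the only one that limma called on vector, in the ww52 strain, and the median was -0.47 in Δmetr-1 and -0.30 in that strain. DESeq2 also called clec-67 of the list there, lower, as given above. On RNAi against vector in Δmetr-1, the median of the 11 was 0.99, whereas all genes tested had -0.11, and limma called clec-66. Other tools called further members of the list there, among them clec-65 (DESeq2) and clec-50 (edgeR), described below. In the ww52 strain the median was 0.30 against -0.09, with 0 calls by limma, edgeR and DESeq2 and 0 members at an unadjusted p under 0.05. Against wild type on RNAi, limma called clec-4 and clec-52 in Δmetr-1 and clec-52 in the ww52 strain. An unadjusted p under 0.05 by limma was reached by 5 of the 11 in each mutant on vector, by 6 in Δmetr-1 on RNAi against vector, and by 6 and 5 in Δmetr-1 and the ww52 strain against wild type on RNAi. The share of all genes at that p is not given here, so these counts are only a description. The 9 intestine markers summed to 5528 and 5549 CPM for Δmetr-1 on RNAi and 5299 and 7581 CPM on vector. Of 10 other members with a described role, 7 passed the filter, and limma called only clec-79, described above.

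clec-62, clec-63, clec-65 and clec-66 lie within a cluster of 5 on chromosome II (12893062 to 12906644). clec-66 was at 18.4 and 25.6 CPM for Δmetr-1 on vector and 68.1 and 62.5 CPM on RNAi (log2 change 1.54 ± 0.34, adjusted p = 0.00937). Its vector level was below wild type (45.9 and 54.9 CPM), and its RNAi level was above the 27.6 and 53.1 CPM of wild type on RNAi. The call was lost in 9 of 12 fits without a single library (adjusted p = 0.00623 to 0.0576), among them 3 of those without a library compared. clec-65 was at 116 and 146 CPM on vector and 335 and 360 CPM on RNAi in Δmetr-1 (log2 change 1.41, adjusted p = 0.0217 by limma and 0.0051 by DESeq2). clec-63, the most abundant of the list, was at 238 and 407 CPM on vector and 360 and 406 CPM on RNAi, and overlapped. clec-62 was at 57.7 and 82.7 CPM against 86.96 and 137 CPM.

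clec-50 (chromosome V) was at 80.9 and 88.9 CPM on vector and 173 and 166 CPM on RNAi (log2 change 0.99 ± 0.25, adjusted p = 0.0156 by limma and 0.00819 by edgeR). clec-4 was at 9.30 and 5.56 CPM for Δmetr-1 and 0.934 and 0.519 CPM for wild type on RNAi (log2 change 2.26 ± 0.38, adjusted p = 0.00179), and at 2.80 and 3.50 CPM for Δmetr-1 on vector. Only the Δmetr-1 RNAi libraries reached 5 CPM, so clec-4 entered the test through the group in which it was high. That call was lost without replicate 2 of wild type on RNAi and without replicate 1 of Δmetr-1 on RNAi (adjusted p up to 0.0222). clec-8, the neighbour of clec-4 on chromosome II, was at 15.1 and 15.9 CPM for Δmetr-1 and 33.3 and 23.0 CPM for wild type on RNAi, the other direction. clec-85, another gene linked to p38 signalling, was at 33.0 and 38.4 CPM on vector and 68.8 and 78.1 CPM on RNAi in Δmetr-1, and at 59.0 and 101 CPM for wild type on vector. clec-41 was at 6.69 to 37.3 CPM over all 12 libraries. clec-86 was at 4.81 to 7.66 CPM in the mutants and 5.92 to 25.2 CPM for wild type.

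**Figure D5:**
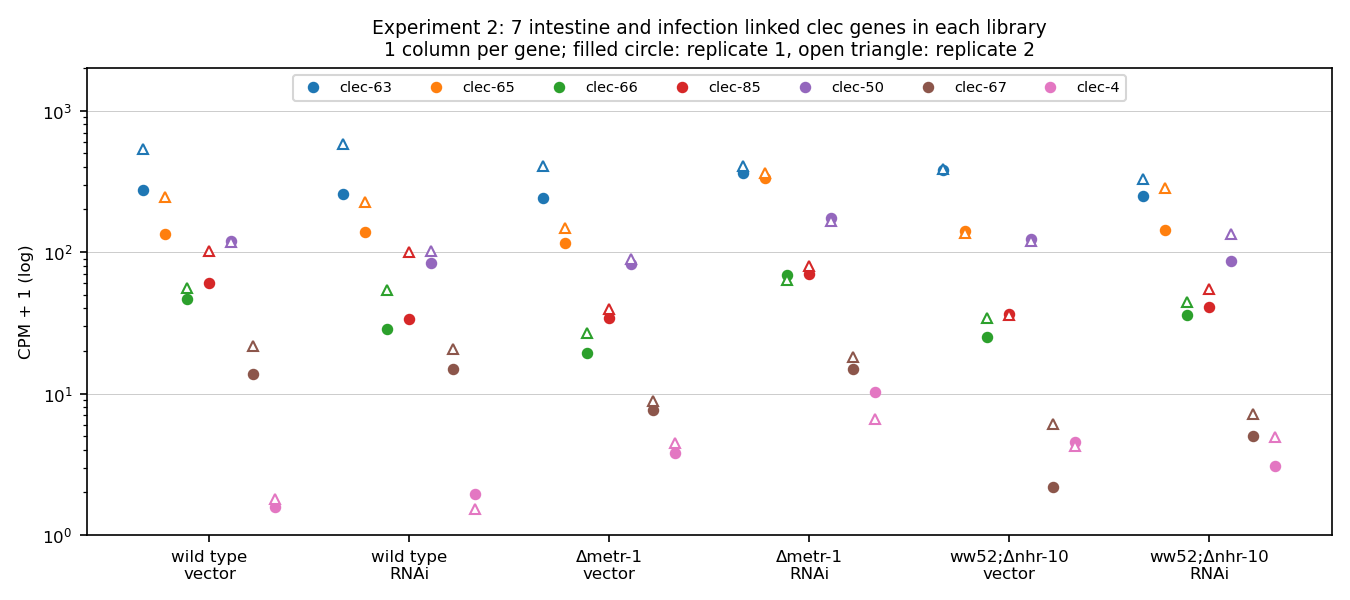
CPM + 1 (log axis) of 7 of the 11 tested intestine and infection linked clec genes (1 column per gene) in the second experiment's libraries, by group. Other tested genes of the list are not drawn. Among these, in Δmetr-1 on RNAi against vector, clec-86 is lower and clec-52 higher in both libraries. Filled circles are replicate 1 and open triangles replicate 2. In Δmetr-1, clec-65 is at 335 and 360 CPM on RNAi against 116 and 146 CPM on vector, and clec-66 at 68.1 and 62.5 CPM against 18.4 and 25.6 CPM.

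clec-147 (chromosome II, 14535926 to 14537828) was at 10.3 and 13.6 CPM for Δmetr-1 on RNAi and at 0.467 and 0.148 CPM (3 and 2 reads) in wild type on RNAi. The log2 change was 3.31 ± 0.67 (adjusted p = 0.00486), and the call was lost without any 1 of the 4 libraries compared (0.0234 to 0.04). It entered the test through the RNAi libraries of Δmetr-1 and replicate 2 of the ww52 strain (9.46 CPM), which alone reached 5 CPM. On vector its Δmetr-1 replicates were at 4.62 and 0.2497 CPM. Of the abundant members not yet described, clec-83, clec-1 and clec-150 were at 253 to 599 CPM, 74.2 to 478 CPM and 41.7 to 91.3 CPM over the 12 libraries.

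The p38 pathway and other immune effectors were compared from fixed lists. Of 14 p38 pathway and related regulators, all tested, limma called 0 in every contrast of the first experiment (0 or 1 at an unadjusted p under 0.05 in each), and sma-3 alone in the second, higher in the ww52 strain against wild type on RNAi (log2 change 1.83). DESeq2 called 0 to 3 of the 14 per comparison, all higher, against 0.0% to 25.1% of all genes in either direction. In the 4 comparisons of mutants on RNAi, 7 or 8 of the 14 had an unadjusted p under 0.05 by limma, with median log2 changes of 0.62 to 0.71. There limma called 4.76% to 15.9% of all genes at the stricter threshold, and their share at an unadjusted p under 0.05 is not given here. The summed level of the list was 1464 and 1547 CPM for Δmetr-1 on vector and 2344 and 2586 CPM on RNAi, and 1431 and 1464 CPM in the ww52 strain on vector and 2361 and 1930 CPM on RNAi. In wild type it was 1286 and 1439 CPM on vector and 1801 and 1604 CPM on RNAi, so vector and RNAi did not overlap in any of the 3 strains. Of 33 other effectors, 26 and 28 passed the filter. limma called irg-1 and irg-2, genes induced by infection, higher in all 4 comparisons of mutants on RNAi (log2 change 1.39 to 3.23 and 1.94 to 2.64). sysm-1 was called lower in the ww52 strain on vector and on RNAi against wild type (log2 change -4.07 and -3.28) and higher in Δmetr-1 on RNAi against vector (2.69). dod-17 and the lysozyme gene lys-8 were called lower in the ww52 strain against wild type on RNAi (log2 change -1.62 and -1.66).

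Over the comparisons of groups, the median of the tested members shifted most in Δmetr-1 on RNAi. Their median log2 change was 0.36 against vector and 0.42 against wild type on RNAi, while the medians of all genes were -0.11 and -0.12. With the scaling of edgeR the medians of all genes were 0.14 and 0.05 and those of the members 0.77 and 0.56, so the members lay above all genes under both scalings. In the ww52 strain the member medians were -0.09 and 0.10, against -0.09 and -0.02, and with edgeR 0.15 and 0.23, against 0.02 and 0.05, so the first changed sign. The interactions of genotype and RNAi gave 0 calls among members by limma and by edgeR, while limma called 0.0347% (Δmetr-1) and 0.0173% (ww52 strain) of all genes. At the looser threshold of an unadjusted p under 0.05 by limma there were 19 and 12 members. The share of all genes at that p is not given here. DESeq2 called 8 and 5 members, against 7.39% and 4.14%.

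The counts on RNAi depended on which libraries entered. Without the replicate 1 RNAi libraries limma called 0 members in each of the 4 comparisons of mutants on RNAi, where 9, 5, 9 and 8 had been called. That fit has 1 library in each RNAi group, so the loss does not show that the calls rested on the libraries left out. All kept their direction, and the log2 change of clec-47 against vector was -3.95 in Δmetr-1 and -4.77 in the ww52 strain. In a fit of the compared libraries alone, RNAi against vector gave 0 calls in either mutant (adjusted p 0.0533 to 0.0881 and 0.0122 to 0.0253). Without replicate 1 of Δmetr-1 on RNAi, 0 of its 9 calls against vector remained, and 4 remained without replicate 2 on RNAi or without replicate 1 on vector. The 5 calls in the ww52 strain were all lost without any 1 of the 4 libraries compared. Against wild type on RNAi, the calls that remained without a compared library were 3 to 5 of 9 in Δmetr-1 and 3 or 4 of 8 in the ww52 strain. clec-73 and clec-151 were called in both strains in all 12 fits that left out 1 library of the experiment, and clec-79 in all 12 in Δmetr-1.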

How the data were processed

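The authors used a variant of CEL-seq2, which reads 3′ ends of transcripts. Reads were trimmed with Trimmomatic 0.32, aligned with STAR and assigned to a WormBase gene set by ESAT, and strand use in counting is not given in the sources used here. The deposited tables are named TPM, but hold CPM: each column sums to 1000000 and 100% of values are whole multiples of 1 step per library (tolerance 0.02 reads), from which whole reads were recovered. No value column was left unmapped (0 columns).

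Tests were two-sided and used limma 3.58.1 (R 4.3.3; trend, robust) on log2(CPM + 1), which understates changes of low genes, with each group's mean fitted jointly across the experiment. Genes with 5 CPM or more in 2 libraries or more were tested, with 4 and 6 residual degrees of freedom, and p-values were adjusted by Benjamini-Hochberg over all genes tested. Calls needed an adjusted p under 0.01 and a fold over 1.5. The design named edgeR for raw counts. Since the files hold CPM, limma was kept, with edgeR 4.0.16 and DESeq2 1.42.0 on recovered reads as alternatives. Other alternatives were a pseudocount of 5, no filter, median-of-ratios scaling, only the libraries compared, a replicate block and leaving out libraries.

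Members and lists were chosen with earlier results of these data known. Named genes were clec-47, the 8 members with the highest mean CPM per experiment, up to 6 called rises and 6 called falls per comparison averaging 5 CPM or more, the 4 with the lowest p whose libraries did not overlap where none was called, and intestine or infection linked members averaging 10 CPM or more in a group. Positions are from WBcel235 (Ensembl release 115). The labels name biological duplicates.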

Additional observations from a re-analysis of the deposited data

How the results depend on the processing

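All limma calls kept their direction under every alternative run for them. For the numbers of clec genes called, no filter gave 1 for methionine in wild type, 1 for untreated Δnhr-114 and 3 for RNAi against vector in the ww52 strain. DESeq2 gave 2 for methionine in wild type, 2 for untreated Δnhr-114, 1 for their interaction, 2 and 7 for Δmetr-1 and the ww52 strain on vector, 18 and 11 for RNAi against vector, 23 and 17 against wild type on RNAi, and 8 and 5 for the interactions with RNAi. edgeR gave 0 and 0 on vector and 3 for RNAi against vector in the ww52 strain. A pseudocount of 5 gave 1 for the ww52 strain on vector and 3 for its RNAi against vector, and median-of-ratios scaling gave 1 for that strain on vector. With the compared libraries alone there were 6 for the ww52 strain on vector, 0 and 0 for RNAi against vector, and 16 for Δmetr-1 against wild type on RNAi. Without the 3 RNAi libraries of replicate 1, an alternative chosen after seeing the data, 0 were called in every comparison of the second experiment. That fit left 1 library in each RNAi group. The causes were not tested.

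Leaving out 1 library gave 0 to 0 calls in the 5 contrasts of the first experiment, for RNAi in wild type and for the interaction in the ww52 strain. It gave 0 to 1 and 0 to 2 for Δmetr-1 and the ww52 strain on vector, 0 to 12 and 0 to 7 for RNAi against vector, 3 to 15 and 4 to 9 against wild type on RNAi, and 0 to 4 for the interaction in Δmetr-1. The log2 change of clec-86 with RNAi in wild type, 0.74, was -0.22 without wild type vector replicate 1 and 1.70 without replicate 2. Over the single values of named genes under the alternatives, 206 lost a call, 17 gained 1 and 1 reversed, and 1017 did neither.

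Same-numbered libraries deviated together in some pairs of groups and not in others (r over genes -0.655 to 0.681, over 0.1 in 2 of 6 and 6 of 15 pairs), so the numbers were not taken as pairs. A replicate block gave 1 call for the ww52 strain on vector, 11 and 7 for RNAi against vector and 12 and 8 against wild type on RNAi. Crossed numbers, added after seeing the data, gave 1 for methionine in wild type and 17 for RNAi against vector in Δmetr-1.

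With 2 libraries per group, a miss says little. Depth limits low members: in the shallowest library 3 reads are 2.16 CPM.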

Other observations

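clec-169 and clec-6 differed strongly between the replicates of wild type. clec-169 was at 140 and 14.2 CPM in untreated wild type and 152 and 7.20 CPM with methionine, all above the 1.56 to 4.98 CPM of the 4 Δnhr-114 libraries. In the second experiment the wild type values of clec-169 were 26.4 and 4.67 CPM with vector bacteria, compared with 29.6 and 3.85 CPM with RNAi bacteria. clec-6, which lies outside the naming rule and was chosen after its values were seen, was at 23.4 and 2.78 CPM in untreated wild type, 15.4 and 0.720 CPM with methionine, 22.5 and 1.01 CPM on vector and 23.97 and 0.519 CPM on RNAi. For both genes replicate 1 of wild type was the higher in every group. clec-169 lies within the range of mutant libraries in replicate 2 of wild type on vector (0.386 to 4.99 CPM in the mutants of the second experiment).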
